A study of Mus musculus with 3 samples.

Results

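The comparison described here set the array of a macrophage-depleted mutant lung against the array of a tumour-bearing mutant lung, chosen by the sample titles KAT and KA2, which are 2 of the 3 arrays of the series. The depleted lung came from a mouse of genotype KA/KA-Lori-Ikkα that had been treated to deplete macrophages, and its tissue was labelled as partly inflamed with no tumour seen. The tumour lung came from a mouse of the same genotype with no depletion in its label, and was a mixture of lung squamous cell carcinoma and the tissue beside it. Lung of a wild type mouse gave the remaining array, and its values are set beside the others as a baseline. All 3 mice were 16 weeks old. In the mutant line of that name, KA is a kinase-dead knock-in of the gene for IKKα and Lori-Ikkα is a transgene under the loricrin promoter, which is active in differentiating keratinocytes of the skin. Both mutant mice carried these alleles, so the pair differs in treatment, in the presence of a tumour and in the animal, and the 3 cannot be told apart. The animals also differed in sex-linked genes, as given below. The depleting agent and its schedule are not given in the labels. Each group was 1 mouse and 1 array, so values carry no error, nothing was tested, and every difference describes these arrays only.

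IKKα is a kinase that regulates NF-kB signalling and the differentiation of squamous epithelium. Squamous cell carcinoma of the lung makes keratins and cornified envelope proteins that healthy alveolar tissue lacks. Macrophages in and around tumours secrete chemokines, growth factors and matrix-degrading enzymes, and resident alveolar macrophages clear surfactant and debris from the airspaces.

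Expression was read as the deposited intensity of each probe set, a group of short oligonucleotides for 1 transcript, on a linear scale. The authors' comparison tables gave gene names to 2944 genes, of which 2744 had a brighter array at or above that array's median (127 in depleted and 124 in tumour lung) and were compared. The other 200 were too dim on both arrays. A gene was counted when its intensities were at least 2-fold apart. By that measure 810 genes (29.5%) were higher in the depleted lung and 752 (27.4%) were lower, and 1182 were under 2-fold. These shares are of genes that the authors had listed in their comparison tables, a selected set. They are the base for the list counts given below, which cover only list members that were so listed and bright enough. Of all 24222 probe sets at the same level, named or not, 7.68% were higher and 7.26% lower, and of all 45037 at any level 13.2% and 12.7%. Differences of at least 8-fold, by intensities as read, were found for 69 genes that were higher and 144 that were lower. These counts include genes dim on 1 array whose lower bound, explained next, is under 8-fold, such as Grhl3 (5.47) and Camp (7.21). Where the dimmer array lay below its 25th percentile, about 35 units on either array (35.0 in depleted and 35.5 in tumour lung), a fold is given against that percentile as a lower bound ("at least"). The authors' own ratio, from the authors' deposited tables, is added where it differs from the fold by over 1.5 times. Probe sets differ in brightness for reasons unrelated to expression, so intensities are compared between arrays and never between genes. Summed intensities, given for some lists, are likewise compared between arrays only, and they weigh the brighter probe sets more.

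Sex-linked genes differed between the mutant arrays. Xist, the RNA of the inactive X chromosome, read 133 in depleted lung, against 15608 in the tumour and 188 in wild type lung. All 4 genes of the Y chromosome that were compared from the sex-linked list went the other way. Ddx3y read 1470 in depleted lung, against 59.7 in the tumour and 1461 in wild type lung. The depleted and wild type arrays are thus alike in sex-linked genes, with the pattern of a male. The tumour array differs and has the pattern of a female. Muscle and fat genes differed as well and are given near the end. The part of sex and of these tissues in the other results was not tested. The ratio of 3′ to 5′ control probe sets, a sign of RNA integrity, was 0.974 in depleted, 0.794 in tumour and 1.06 in wild type lung for Gapdh, and 1.41, 1.33 and 1.30 in the same order for Actb.

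**Figure D1:**
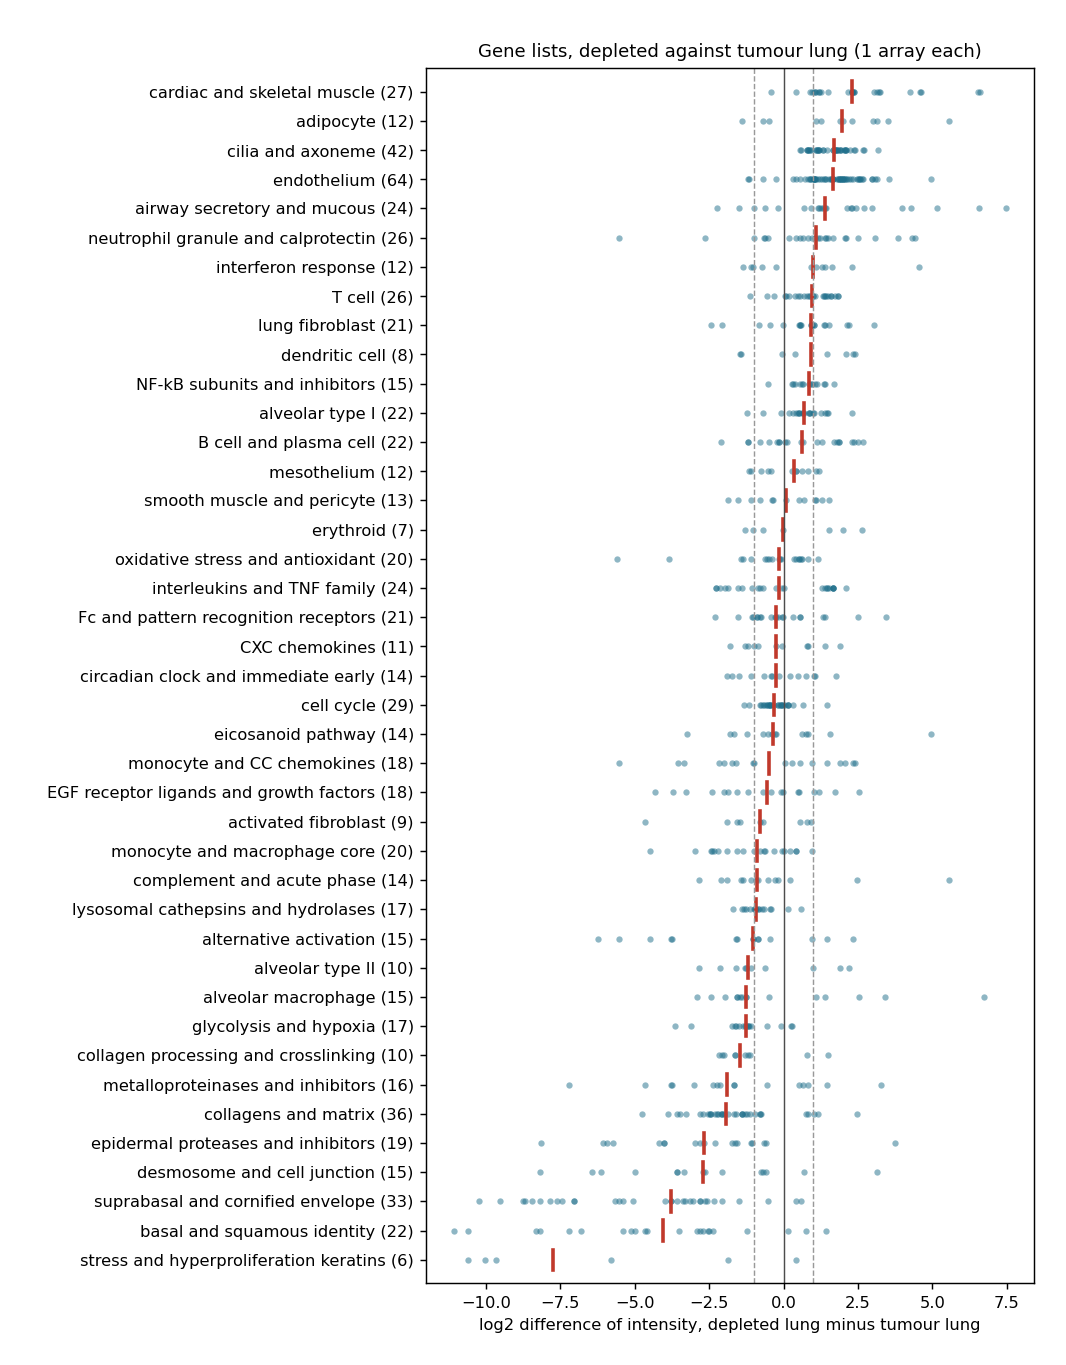
Log2 difference of intensity, depleted lung minus tumour lung (x axis), for the members of each gene list that passed the level filter, with 1 point per gene, the list's median as a red bar and the number of genes in brackets. Dashed lines mark 2-fold. Squamous, junction and matrix lists lie at the left with medians between -7.74 and -1.92, and vessel, cilia, fat and muscle lists at the right with medians between 1.66 and 2.30.

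Macrophage genes did not move as a block, although the treatment was aimed at these cells. The core monocyte and macrophage list held 20 genes, of which the depleted lung was 2-fold or more below the tumour for 9, above it for none and within 2-fold for 11. The list's median log2 difference was -0.88, against 0.25 over all 2744 genes. Its summed intensity was 73742 in depleted lung, against 139033 in the tumour and 23089 in wild type lung. Cd68, a lysosomal glycoprotein of macrophages, read 5553 in depleted lung, against 14106 in the tumour and 1645 in wild type lung. Adgre1, the gene of the mouse macrophage antigen F4/80, was 1.97-fold lower, with 1438 in depleted, 2829 in tumour and 641 in wild type lung, and so just missed 2-fold. Csf1r, the receptor that macrophages need for survival, has no name in the tables used and is not analysed here. Cd163, the haptoglobin-haemoglobin scavenger receptor, read 101 in depleted lung, against 2266 in the tumour and 82.0 in wild type lung. Msr1, a scavenger receptor for modified lipoproteins, read 553 in depleted lung, against 2977 in the tumour and 147 in wild type lung (5.39-fold lower in depleted). The integrin subunit gene Itgam (CD11b) read 136 in depleted lung, against 502 in the tumour and 43.7 in wild type lung.

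Other genes of the same cells were nearly as bright on both mutant arrays. Mpeg1, which encodes a pore-forming protein of phagocytes, read 10499 in depleted lung, against 13101 in the tumour and 3199 in wild type lung. Tyrobp, the adaptor of many myeloid receptors, read 13032 in depleted lung, against 12880 in the tumour and 4006 in wild type lung. Cd14, the lipopolysaccharide co-receptor, read 5345 in depleted lung, against 4565 in the tumour and 897 in wild type lung. Ptprc, the pan-leukocyte antigen CD45, was 1.82-fold higher, with 11415 in depleted and 6284 in tumour lung. These 4 genes read above wild type on both mutant arrays. In whole lung, fewer cells of a type and less RNA per cell cannot be told apart.

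Several of the macrophage genes that were lowest against the tumour are in the alternative activation list. Of its 15 genes that were compared 9 were lower, 2 higher and 4 within 2-fold (median -1.04). Arg1, the arginase of alternatively activated macrophages, read 255 in depleted lung, against 19256 in the tumour and 111 in wild type lung, a 75.6-fold difference. Folr2, a folate receptor of resident macrophages, read 164 in depleted lung, against 2218 in the tumour and 257 in wild type lung. The chitinase-like gene Chil4 read 1943 in depleted lung, against 26919 in the tumour and 50.5 in wild type lung, so the depleted lung was 13.9-fold below the tumour and still far above wild type. Retnla, a secreted resistin-like protein of the same programme, read 21367 in depleted lung, against 29391 in the tumour and 2609 in wild type lung, and was under 2-fold. The 2 members that were higher were the chemokine genes Ccl17 and Ccl22, given below.

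In the list of lysosomal cathepsins and hydrolases 5 of 17 genes were lower by 2-fold or more, near the 27.4% of all genes compared, and none was higher (median -0.92). Lgmn, the lysosomal protease legumain, was 3.27-fold lower, with 4173 in depleted and 13665 in tumour lung, and Ctsl, cathepsin L, was 2.60-fold lower. Ctsb, cathepsin B, read 15732 in depleted lung, against 26125 in the tumour and 6782 in wild type lung. Complement and acute phase genes numbered 6 lower and 2 higher of 14. The anaphylatoxin receptor gene C3ar1 was 7.09-fold lower, with 644 in depleted, 4567 in tumour and 154 in wild type lung, and C1qc, a chain of the first complement component, was 2.72-fold lower. Fcgr2b, the inhibitory IgG receptor, read 2762 in depleted lung, against 13656 in the tumour and 574 in wild type lung. The acute phase gene Saa3 stayed bright on both mutant arrays, with 12239 in depleted lung, against 14812 in the tumour and 145 in wild type lung.

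Genes of alveolar macrophages divided, with 9 of 15 lower and 5 higher (median -1.26). Marco, a scavenger receptor, read 1289 in depleted lung, against 12.1 in the tumour and 8.90 in wild type lung, and was at least 36.3-fold above the tumour (or 21.7-fold in the authors' deposited table). Several lower members are shared with other cells: Fabp5, a fatty acid binding protein also made by squamous epithelium, read 10108 in depleted lung, against 24091 in the tumour and 6418 in wild type lung. Atp6v0d2, a proton pump subunit of macrophages and osteoclasts, read 3433 in depleted lung, against 9561 in the tumour and 1108 in wild type lung. Krt79, a keratin on this list, was 10.6-fold higher, with 642 in depleted, 60.8 in tumour and 656 in wild type lung.

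**Figure D2:**
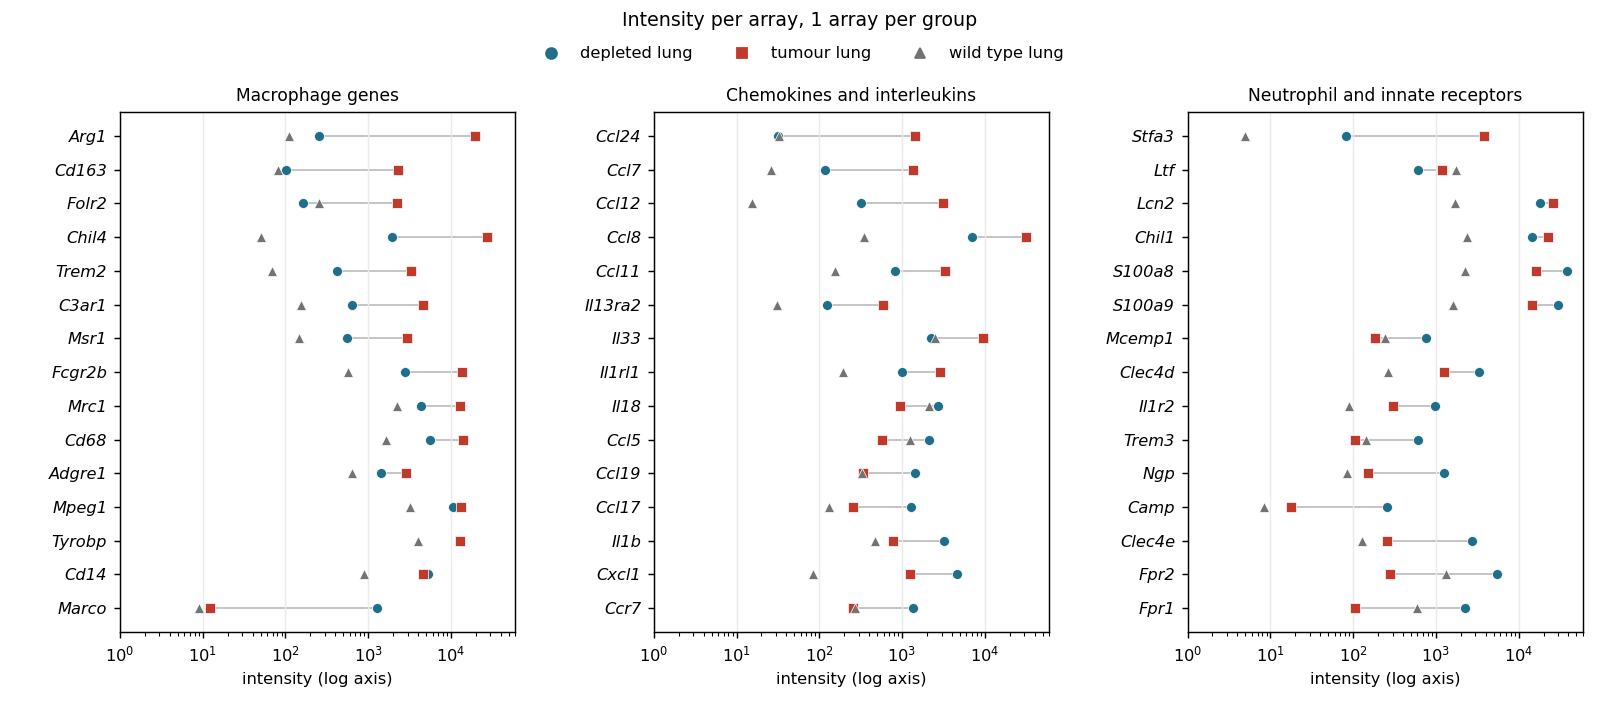
Intensity on a log axis for 15 genes per panel, with the depleted lung as circles, the tumour lung as squares and the wild type lung as triangles, 1 array each, and a line joining the mutant arrays. Cd163 and Ccl24 sit near wild type in the depleted lung, Mpeg1, Tyrobp and Cd14 overlap between mutant lungs, and Fpr1, Fpr2 and Clec4e are higher in the depleted lung than on either other array.

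Receptors of innate recognition went both ways, with 4 of 21 lower and 4 higher. Both shares are below those of all genes compared (27.4% lower and 29.5% higher). The higher ones were C-type lectins and a triggering receptor. Clec4e (Mincle), a lectin that senses mycobacterial glycolipid and dead cells, read 2728 in depleted lung, against 254 in the tumour and 127 in wild type lung. Its partner Clec4d read 3309 in depleted lung, against 1263 in the tumour and 266 in wild type lung. Trem3 was 5.73-fold higher, with 612 in depleted and 107 in tumour lung, and Clec4n (Dectin-2) was 2.50-fold higher. Among the lower ones Cd200r1, an inhibitory receptor of myeloid cells, read 229 in depleted lung and 654 in tumour lung.

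Neutrophil genes were mostly higher in the depleted lung, with 14 of 26 at least 2-fold higher and 3 lower (median 1.10). The formyl peptide receptor genes, through which neutrophils sense bacteria, led the higher ones. Fpr1 read 2253 in depleted lung, against 105 in the tumour and 592 in wild type lung, a 21.5-fold difference (13.5-fold in the authors' deposited table). Fpr2 was 19.9-fold higher, with 5556 in depleted, 279 in tumour and 1328 in wild type lung. The calprotectin genes S100a8 and S100a9 were 2.36-fold and 2.08-fold higher. Camp, the cathelicidin of neutrophil granules, was at least 7.21-fold higher (by 1.73-fold in the authors' deposited table), with only 256 in depleted and 17.7 in tumour lung. The lower members include genes that squamous epithelium or other epithelia also make: Stfa3, a stefin, read 83.0 in depleted and 3781 in tumour lung, and Asprv1, a skin protease, read 283 and 1777 in the same order. Prok2, a secreted prokineticin that was among the 12 highest genes of the comparison, read 230 in depleted lung, against 6.20 in the tumour and 10.8 in wild type lung. That is a difference of 6.46-fold or more, and of 4.27-fold in the authors' deposited table.

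Chemokine genes went both ways. Among 18 CC chemokine and receptor genes 9 were lower and 5 higher. The eosinophil attractant Ccl24 read 31.4 in depleted lung, against 1431 in the tumour and 32.5 in wild type lung, and was at least 40.9-fold lower (by 10.3-fold in the authors' deposited table). Ccl11, another eosinophil attractant, was 4.01-fold lower, and the monocyte attractants Ccl2, Ccl7 and Ccl8 were 3.29-fold, 11.7-fold and 4.49-fold lower. Ccl12, of the same group, read 316 in depleted lung, against 3166 in the tumour and 15.2 in wild type lung. Rnase2a, a ribonuclease gene of the eosinophil-associated family that is expressed in macrophages and eosinophils, read 1144 in depleted lung, against 10840 in the tumour and 81.8 in wild type lung. Ligands and the receptor of lymphocyte and dendritic cell homing were higher: Ccr7 read 1352 in depleted lung, against 259 in the tumour and 268 in wild type lung. Its ligand Ccl19 read 1422 in depleted lung, against 338 in the tumour and 324 in wild type lung. Ccl17 was 5.04-fold and Ccl22 2.76-fold higher, both ligands of the receptor CCR4. Of 11 CXC genes 2 were higher, among them the neutrophil receptor gene Cxcr2 at 2.59-fold, and 3 were lower, including Cxcl12 at 2.26-fold.

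Interleukin and TNF family genes were split into 10 higher and 8 lower of 24, with a median of -0.15 that became -0.86 with the level filter at the 75th percentile. The alarmin Il33 read 2217 in depleted lung, against 9638 in the tumour and 2535 in wild type lung, a 4.35-fold difference, and its receptor gene Il1rl1 (ST2) read 992 in depleted lung, against 2887 in the tumour and 195 in wild type lung. Il13ra2, the decoy receptor of interleukin-13, was 4.77-fold lower, with 122 in depleted and 583 in tumour lung. Il1rn, the antagonist of the interleukin-1 receptor, was 3.87-fold lower, with 714 in depleted and 2764 in tumour lung, whereas Il1b was 4.23-fold higher, with 3260 in depleted and 770 in tumour lung. The agonist and its antagonist thus differed in opposite directions. Il6 read 85.9 in depleted lung, against 311 in the tumour and 11.7 in wild type lung.

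Of 15 genes for NF-kB subunits and inhibitors, 5 were at least 2-fold higher, near the 29.5% of all genes compared, and none was lower (median 0.84). Nfkbia, which encodes the inhibitor IkBα and is itself an NF-kB target, read 10465 in depleted lung, against 4116 in the tumour and 6357 in wild type lung. Nfkbie, another inhibitor, was 2.64-fold higher, with 1653 in depleted, 626 in tumour and 311 in wild type lung. The kinase gene Ikbke was 2.17-fold higher, with 1008 in depleted and 465 in tumour lung. Cd40, a receptor that signals to NF-kB, was 3.27-fold higher (by 2.09-fold in the authors' deposited table). Chuk, the gene of IKKα, has no name in the tables used and is not analysed here. The letters GGGA followed, after 2 further bases, by TNCC, a form of the NF-kB site, were searched on both strands in the 250 bases before each gene's start (RefSeq, GRCm38.p6). Some genes have several starts and so several windows. In this and the later searches a gene counted when any of its windows held a match. All 15 members were taken, whatever their difference. The letters stood before 4 of the 10 members that have a window (40.0%), against 3.80% of 27025 genes with a window and 5.57% of the named genes compared here. Of these 4 only Nfkbia was past 2-fold. Nfkb2, Tnip1 and Nfkbid had log2 differences of 0.94, 0.64 and 0.54, so the share does not describe the higher genes. A match is a description of letters, not a binding site. The window of Nfkbia is shown because the gene is the classic inhibitor and target of the pathway. It holds 2 matches, in capitals.
Nfkbia, chr12:55492648-55492897, minus strand: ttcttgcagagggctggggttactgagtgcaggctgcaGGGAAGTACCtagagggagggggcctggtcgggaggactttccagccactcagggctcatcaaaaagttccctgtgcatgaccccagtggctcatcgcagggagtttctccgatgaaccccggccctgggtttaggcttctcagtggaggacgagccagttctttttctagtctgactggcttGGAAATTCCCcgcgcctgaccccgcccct

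More lymphocyte genes were higher than lower in the depleted lung. The T cell list had 12 of 26 genes higher and 1 lower (median 0.94). Genes of naive and resting T cells were among those that differed most: the transcription factor genes Tcf7 and Lef1 read 2355 and 1110 in depleted lung, against 712 and 312 in the tumour and 693 and 444 in wild type lung. Il2ra, a receptor of activated and regulatory T cells, was the lower member, with 103 in depleted and 226 in tumour lung (2.20-fold, and 1.19-fold in the authors' deposited table). Il7r read 4336 in depleted lung, against 6310 in the tumour and 815 in wild type lung.

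Among 22 genes of B and plasma cells, 10 read higher and 3 lower. Ms4a1 (CD20), a gene of mature B cells, was 5.12-fold higher, with 1992 in depleted, 389 in tumour and 705 in wild type lung, and Fcmr, the IgM receptor, was 5.71-fold higher. The 3 lower members were Iglv1, Jchain and Derl3. Iglv1, a light chain variable segment, read 994 in depleted lung, against 4238 in the tumour and 116 in wild type lung. Jchain, which joins secreted antibodies, read 5102 in depleted lung, against 11665 in the tumour and 1145 in wild type lung, and Derl3, of the secretory pathway, was also 2.29-fold lower. The antibody heavy chain genes Ighm and Ighg were nearly equal, with 11926 and 3346 in depleted lung and 13278 and 3201 in tumour lung. Antibody genes share sequence, so the values of single chains are uncertain. H2-Ob and H2-Oa, chains of a class II modulator found mainly in B cells, were 4.17-fold and 3.45-fold higher.

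Dendritic cell genes numbered 4 higher and 2 lower of 8, Zbtb46, a factor of conventional dendritic cells, by 4.24-fold upward and Batf3 by 2.71-fold downward. The other higher members, Ccl17, Ccl22 and Ccr7, were given above with the chemokines, so this count is not separate from theirs. Interferon response genes were also divided, with 6 of 12 higher and 3 lower. Ifitm6, an interferon-induced membrane protein gene of myeloid cells, read 2176 in depleted lung, against 92.4 in the tumour and 371 in wild type lung (23.6-fold, and 14.8-fold in the authors' deposited table). Zbp1, a nucleic acid sensor, read 150 in depleted lung, against 384 in the tumour and 42.7 in wild type lung. Of the 24 genes of the NK and cytotoxic list only Gzma had a name in the tables used, with 521 in depleted and 235 in tumour lung. The others are not analysed here.

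Most squamous genes were lower in the depleted lung. In the basal and squamous identity list 19 of 22 genes were lower and 1 higher, and the median was -4.05 (-2.85 when dim readings were set to the 25th percentile, and -2.44 by the authors' ratios). The cornified envelope list had 30 of 33 lower and none higher (median -3.79, and -2.96 by the authors' ratios), and the stress keratins 5 of 6 (median -7.74, and -5.93 by those ratios). Of the 12 lowest genes of the whole comparison, 11 are in these lists and the other is Cst6, an epidermal protease inhibitor. Krt14, a keratin of basal cells, read 7.11 in depleted lung, against 15242 in the tumour and 31.3 in wild type lung, and was at least 435-fold lower (by 197-fold in the authors' deposited table). Its partner Krt5 was 111-fold lower (by 21.4-fold in the authors' deposited table), with 66.4 in depleted, 7347 in tumour and 106 in wild type lung. Trp63, the transcription factor of basal cells, read 87.6 in depleted lung, against 991 in the tumour and 96.5 in wild type lung. For these 3 genes the depleted lung lay near or below wild type. Sprr1b, a cornified envelope precursor, read 3.01 in depleted lung, against 3626 in the tumour and 2.64 in wild type lung. Pkp1, a desmosome plaque protein, was at least 62.1-fold lower (by 23.3-fold in the authors' deposited table), with 7.45 in depleted and 2172 in tumour lung. Sfn, 14-3-3σ, a marker of stratified epithelium, was at least 26.5-fold lower, and 12.1-fold in the authors' deposited table. Grhl3, a transcription factor of epidermal barrier formation, read 1.30 in depleted lung, against 191 in the tumour and 44.5 in wild type lung. The 3 members of the basal list with a positive difference were Sox2, 2.71-fold higher, the transcription factor gene Bcl11a, with 190 in depleted and 172 in tumour lung, and Dst. Dst, a linker of keratin filaments, read 3392 in depleted lung, against 1995 in the tumour and 4524 in wild type lung. These are readings of its brightest probe set, and its 4 listed probe sets did not all go in 1 direction. Keratin and Sprr genes have near-identical relatives, and single values are uncertain for that reason.

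Junction genes and epidermal proteases were lower along with the keratins. Of 15 desmosome and junction genes 10 were lower and 1 higher (median -2.69, and -2.11 by the authors' ratios). Gjb2, a gap junction protein of epithelium, was 87.0-fold lower (by 32.5-fold in the authors' deposited table), with 67.3 in depleted, 5852 in tumour and 197 in wild type lung. Dsc2, a desmosomal cadherin, was at least 37.6-fold lower, and Cldn4, an epithelial claudin, 12.1-fold, with 144 in depleted, 1735 in tumour and 147 in wild type lung. The higher one was the vessel claudin gene Cldn5. Of 19 epidermal protease and inhibitor genes 16 were lower and 1 higher (median -2.66, and -1.86 by the authors' ratios). Klk6, a kallikrein protease, read 12.8 in depleted lung, against 3663 in the tumour and 60.7 in wild type lung, and was at least 105-fold lower (by 61.2-fold in the authors' deposited table). Spink5, which inhibits such kallikreins, was at least 34.1-fold lower, and 17.2-fold in the authors' deposited table. The maspin gene Serpinb5 read 38.8 in depleted lung, against 708 in the tumour and 41.1 in wild type lung. Wfdc21, a secreted whey acidic protein family member, was the higher one, with 4156 in depleted lung, against 312 in the tumour and 404 in wild type lung.

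The letters TGANTCA, the core of AP-1 sites, were searched on both strands of the same 250-base windows for the 77 lower genes of the squamous, junction and protease lists. Of the 50 that have a window 17 held them (34.0%), against 7.82% of 27025 genes and 9.13% of the named genes compared. Most of these belong to the cornified envelope list, and the Sprr genes are related neighbours on chromosome 3, so they are not independent. Windows of Sprr1b, Sprr1a and Krtdap, chosen from the lowest genes that hold a match, are shown with the match in capitals.
Sprr1b, chr3:92438780-92439029, minus strand: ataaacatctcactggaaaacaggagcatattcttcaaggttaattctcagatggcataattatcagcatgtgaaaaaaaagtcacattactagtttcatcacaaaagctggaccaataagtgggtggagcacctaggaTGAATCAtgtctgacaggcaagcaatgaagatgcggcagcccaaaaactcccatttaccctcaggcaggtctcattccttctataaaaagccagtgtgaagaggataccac
Sprr1a, chr3:92485882-92486131, minus strand: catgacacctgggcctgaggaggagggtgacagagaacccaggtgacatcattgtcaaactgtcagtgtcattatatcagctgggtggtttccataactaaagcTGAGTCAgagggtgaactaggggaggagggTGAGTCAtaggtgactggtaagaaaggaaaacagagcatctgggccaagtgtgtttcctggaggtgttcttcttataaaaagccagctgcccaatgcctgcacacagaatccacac
Krtdap, chr7:30787655-30787904, plus strand: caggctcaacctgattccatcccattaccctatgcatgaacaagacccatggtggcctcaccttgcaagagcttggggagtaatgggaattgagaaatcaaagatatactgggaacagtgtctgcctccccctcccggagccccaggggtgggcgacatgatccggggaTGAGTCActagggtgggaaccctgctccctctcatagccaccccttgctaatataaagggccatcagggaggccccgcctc
Sprr1a read 59.5 in depleted lung, against 11694 in the tumour and 29.8 in wild type lung. Krtdap, a keratinocyte differentiation protein gene, read 41.5 in depleted lung, against 9508 in the tumour and 17.7 in wild type lung. Of genes for AP-1 family factors, Jun read 4365 in depleted lung, against 2109 in the tumour and 3349 in wild type lung, and Fos read 2853 in depleted lung, against 2437 in the tumour and 1110 in wild type lung. Atf3, another member of that family, was 3.71-fold lower, with 726 in depleted and 2696 in tumour lung.

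Glycolysis and hypoxia genes were lower nearly throughout, with 13 of 17 at least 2-fold lower and none higher (median -1.27). Egln3, an oxygen-sensing hydroxylase induced in hypoxia, read 225 in depleted lung, against 2811 in the tumour and 81.6 in wild type lung. The glucose transporter gene Slc2a1 read 1307 in depleted lung, against 4066 in the tumour and 770 in wild type lung. Enzymes of glycolysis were closer together, with Hk2 3.06-fold, Tpi1 2.80-fold, Pgk1 2.59-fold and Ldha 2.22-fold lower. Pgk1 read 4188 in depleted lung, against 10868 in the tumour and 4260 in wild type lung. Vegfa, an angiogenic target of hypoxia, was nearly equal, with 3005 in depleted lung, against 3219 in the tumour and 6429 in wild type lung.

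Growth factor genes had 8 of 18 lower and 4 higher. The epidermal growth factor receptor ligand Epgn was 5.28-fold lower (by 2.63-fold in the authors' deposited table), and Igfbp3, an insulin-like growth factor binding protein, 9.64-fold (6.14-fold there), with 248 in depleted lung, against 2386 in the tumour and 1890 in wild type lung. Igfbp6 went the other way and read 5580 in depleted lung, against 955 in the tumour and 5572 in wild type lung. Oxidant genes of epithelium were lower: Duoxa1, the maturation factor of a dual oxidase, read 11.1 in depleted lung, against 535 in the tumour and 8.71 in wild type lung, and was at least 15.3-fold lower (by 5.17-fold in the authors' deposited table). Over the oxidative stress list 5 of 20 were lower, near the 27.4% of all genes compared, and 1 was higher.

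Eicosanoid genes went both ways. Hpgd, the enzyme that inactivates prostaglandins, read 18018 in depleted lung, against 578 in the tumour and 11042 in wild type lung, a 31.2-fold difference. Ptges, a synthase of prostaglandin E2, was 3.17-fold lower (by 2.08-fold in the authors' deposited table), with 236 in depleted, 749 in tumour and 279 in wild type lung. Its receptor gene Ptger3 read 50.1 in depleted lung, against 479 in the tumour and 144 in wild type lung. Ptgis, the prostacyclin synthase, was 2.97-fold higher, with 5341 in depleted and 1797 in tumour lung. Across the 14 eicosanoid genes 4 were lower, near the 27.4% of all genes compared, and 2 were higher, below the 29.5%.

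Most matrix genes were lower in the depleted lung. Of 36 collagen and matrix genes 27 were lower and 3 higher (median -1.92). The fibrillar collagen gene Col3a1 read 4803 in depleted lung, against 23655 in the tumour and 7987 in wild type lung. Col12a1, a fibril-associated collagen gene, read 137 in depleted lung, against 1511 in the tumour and 1152 in wild type lung, and was thus low only in the depleted lung among these arrays. Fmod, a collagen-binding proteoglycan, was 14.9-fold lower, with 129 in depleted, 1920 in tumour and 335 in wild type lung. Ogn and Dcn, like Fmod small proteoglycan genes, went the other way: Ogn was 2.25-fold higher and Dcn read 3837 in depleted lung, against 2190 in the tumour and 7959 in wild type lung. Of 10 genes of collagen processing 8 were lower and 1 higher. The procollagen proteinase gene Adamts2 was 4.51-fold lower (by 2.78-fold in the authors' deposited table), whereas Pcolce2 read 3343 in depleted lung, against 1194 in the tumour and 7974 in wild type lung.

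Fibroblast activation and proteolysis genes followed the collagens in part. Grem1, a bone morphogenetic protein antagonist of activated fibroblasts, read 32.9 in depleted lung, against 830 in the tumour and 65.3 in wild type lung, and was at least 23.7-fold lower (by 5.93-fold in the authors' deposited table). In that list 4 of 9 genes were lower and none higher, and the fibroblast marker Pdgfra read 7473 in depleted lung, against 4377 in the tumour and 7874 in wild type lung. Of 16 metalloproteinase and inhibitor genes 10 were lower and 2 higher. Timp1, an inhibitor of these proteases, was 13.4-fold lower, with 373 in depleted, 4997 in tumour and 367 in wild type lung. Its relative Timp4 was 9.74-fold higher (by 5.93-fold in the authors' deposited table), with 566 in depleted, 58.1 in tumour and 114 in wild type lung. Of 21 genes of resident lung fibroblasts 8 were higher and 2 lower. Wnt2, a Wnt ligand gene, was 4.54-fold higher, with 581 in depleted lung, against 128 in the tumour and 1396 in wild type lung.

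**Figure D3:**
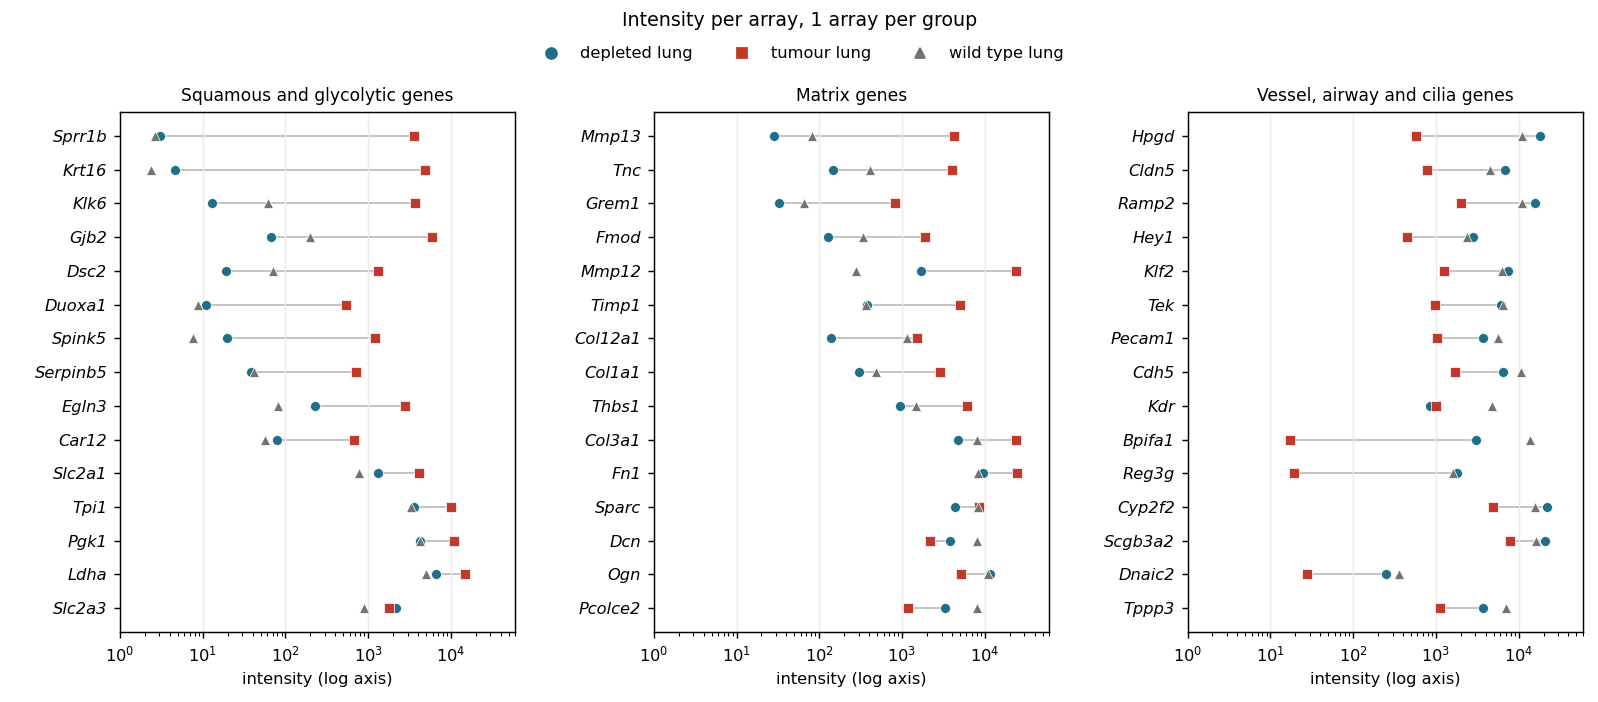
Intensity on a log axis for 15 genes per panel, with the depleted lung as circles, the tumour lung as squares and the wild type lung as triangles, 1 array each, and a line joining the mutant arrays. The depleted lung lies left of the tumour lung for the first panel apart from Slc2a3, and right of it for the last panel apart from Kdr.

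Endothelial genes were the largest block that was higher, with 51 of 64 at least 2-fold higher and 2 lower (median 1.66). Ramp2, part of the adrenomedullin receptor, read 15660 in depleted lung, against 1989 in the tumour and 11080 in wild type lung. Pecam1 (CD31) read 3754 in depleted lung, against 1044 in the tumour and 5664 in wild type lung. The flow-responsive factor gene Klf2 was 5.90-fold higher and Hey1, a target of Notch signalling, 6.31-fold. Kdr, a receptor of vascular endothelial growth factor, did not follow and read 840 in depleted lung, against 999 in the tumour and 4770 in wild type lung. The lower members were Apln, a peptide of sprouting vessels, and Cxcl12, each just over 2-fold.

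Airway genes were higher as well, with 17 of 24 secretory and mucous genes higher and 3 lower (median 1.41). Reg3g, an antibacterial lectin, read 1818 in depleted lung, against 19.1 in the tumour and 1614 in wild type lung, and was at least 51.2-fold higher (by 26.3-fold in the authors' deposited table). Cyp2f2, a club cell cytochrome, read 21774 in depleted lung, against 4945 in the tumour and 15749 in wild type lung, and Scgb3a2, a secretoglobin, was 2.67-fold higher. Bpifa1, a secreted airway protein, reached 3080 in depleted lung, against 17.2 in the tumour and 13617 in wild type lung. The mucous cell gene Clca1 was 6.57-fold higher, with 1457 in depleted, 222 in tumour and 2.93 in wild type lung, so that this gene was bright on the mutant arrays alone. Pigr, the transporter of secreted antibodies, read 8311 in depleted lung, against 12680 in the tumour and 1224 in wild type lung.

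No cilia gene that was compared was lower, and 33 of 42 were at least 2-fold higher, with a median of 1.69 (1.20 by the authors' ratios). The list holds 91 genes, of which only 45 had a name in the authors' tables, a selected set, and the rest were not examined. All 42 had a positive difference. Dnaic2, an intermediate chain of axonemal dynein, was at least 7.03-fold higher (by 3.67-fold in the authors' deposited table), with 250 in depleted, 28.0 in tumour and 358 in wild type lung. Tppp3, a tubulin polymerization protein, read 3745 in depleted lung, against 1134 in the tumour and 7138 in wild type lung. Many of these genes are regulated by RFX factors, which bind a motif named the X-box. The letters GTNNCC followed, after 2 or 3 further bases, by GNAAC were searched on both strands in the 250-base windows. Of the 29 higher cilia genes that have a window 12 held them (41.4%), against 3.56% of 27025 genes and 3.61% of the named genes compared. Windows of both dynein intermediate chain genes are shown with the match in capitals, which starts 33 bases before the gene start in Dnaic2 and 19 in Dnaic1.
Dnaic2, chr11:114727169-114727418, plus strand: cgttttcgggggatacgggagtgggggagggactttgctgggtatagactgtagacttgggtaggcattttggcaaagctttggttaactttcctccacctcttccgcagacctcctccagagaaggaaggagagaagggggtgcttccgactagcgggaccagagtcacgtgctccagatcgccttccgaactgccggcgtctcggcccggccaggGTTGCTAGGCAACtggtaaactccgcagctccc
Dnaic1, chr4:41569544-41569793, plus strand: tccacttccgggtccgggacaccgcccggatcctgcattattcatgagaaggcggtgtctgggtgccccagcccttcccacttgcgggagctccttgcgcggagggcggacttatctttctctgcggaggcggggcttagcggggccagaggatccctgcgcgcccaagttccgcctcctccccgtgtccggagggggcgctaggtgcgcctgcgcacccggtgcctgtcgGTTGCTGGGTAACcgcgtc
Dnaic1 read 143 in depleted lung, against 33.3 in the tumour and 191 in wild type lung.

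Alveolar epithelium gave a mixed picture. Of 22 alveolar type I genes 6 were higher, near the 29.5% of all genes compared, and 1 was lower (median 0.67). Hopx, a transcription cofactor of these cells, read 19027 in depleted lung, against 6949 in the tumour and 13731 in wild type lung, while Ager, their most used marker, read 8243 in depleted lung, against 7189 in the tumour and 12050 in wild type lung. Of 10 alveolar type II genes 6 were lower and 2 higher. Etv5, a factor needed for type II identity, read 278 in depleted lung, against 849 in the tumour and 790 in wild type lung, and Acoxl, a peroxisomal oxidase, 1595 in depleted lung, against 351 in the tumour and 1994 in wild type lung. The defining type II gene Sftpc, the lung epithelial factor gene Nkx2-1 and the club cell gene Scgb1a1 have no name in the tables used and are not analysed here, so the label of that list rests on few members. Smooth muscle and pericyte genes had 4 of 13 higher and 3 lower, near the shares of all genes compared. Mesothelium genes had 2 of 12 each way, below those shares.

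Most proliferation genes were under 2-fold between the mutant lungs. Of 29 cell cycle genes 1 was higher and 2 were lower, with a median of -0.32. Mki67, the gene of the proliferation antigen Ki-67, read 895 in depleted lung, against 715 in the tumour and 159 in wild type lung. Top2a, a topoisomerase of dividing cells, read 613 in depleted lung, against 834 in the tumour and 263 in wild type lung, and Rrm2, of nucleotide synthesis, read 834 in depleted lung, against 952 in the tumour and 179 in wild type lung. The cyclin D1 gene Ccnd1 was one of the lower members, with 1153 in depleted lung, against 2551 in the tumour and 3887 in wild type lung. Mki67, Top2a and Rrm2 thus read above wild type in both mutant lungs, and Ccnd1 read below it. Which cells held the RNA was not measured.

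Genes of tissues other than lung parenchyma differed too. Of 27 heart and skeletal muscle genes 23 were higher in the depleted lung and none lower (median 2.30), with a summed intensity of 19844 in depleted lung, against 5092 in the tumour and 93042 in wild type lung. Myl7, an atrial myosin light chain, read 1157 in depleted lung, against 48.6 in the tumour and 8898 in wild type lung. Adipocyte genes were 9 of 12 higher and 1 lower, with a summed intensity of 9865 in depleted lung, against 6247 in the tumour and 21119 in wild type lung. Cfd, the adipose serine protease adipsin, read 450 in depleted lung, against 9.58 in the tumour and 2423 in wild type lung, and was at least 12.7-fold higher (by 5.85-fold in the authors' deposited table). Erythroid genes had 3 of 7 higher and 2 lower, with summed intensities of 15044 in depleted lung, against 13779 in the tumour and 20057 in wild type lung. Without the sex-linked and muscle genes the counts over all named genes were 783 higher and 751 lower.

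The 2 deposited measures of this comparison pointed the same way but differed in size. Of the 810 higher genes 689 were past 2-fold in the authors' ratio too (85.1%), and of the 752 lower genes 654 (87.0%). None of the 1562 had an authors' ratio of opposite sign. Across the 4310 listed probe sets the log2 difference of intensities and the log2 of the authors' ratio correlated at 0.93 (genes are not independent, and both measures come from the same 2 arrays). For 308 of the 1562 the intensity fold exceeded the one in the authors' deposited table by over 1.5 times, after lower bounds were set. Genes dim on 1 array, such as Grem1, Lypd2 and Ccl24, were among them. Lypd2, of the airway list, was at least 13.7-fold higher and 2.57-fold in the authors' deposited table.

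**Figure D4:**
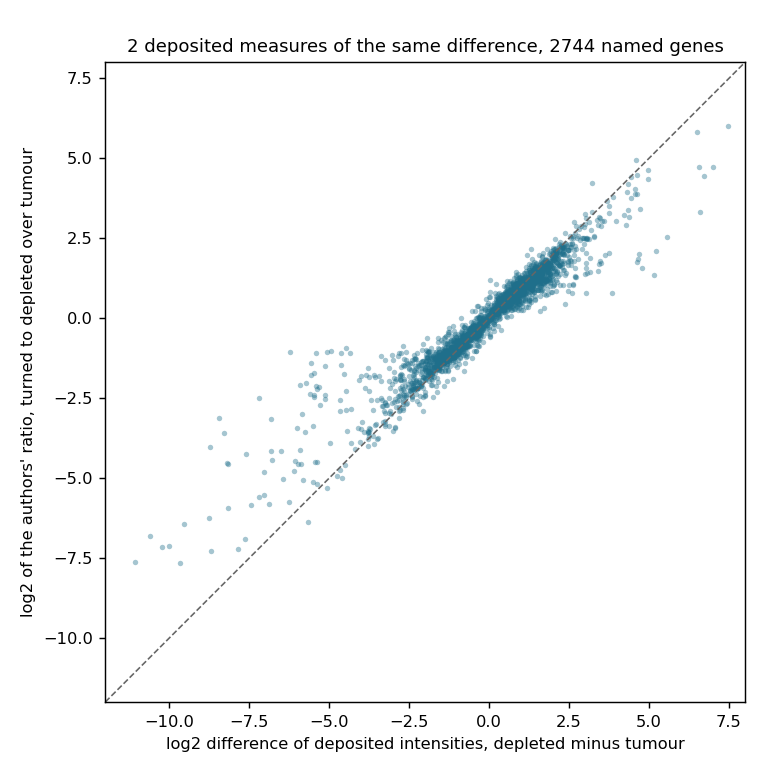
Log2 difference of deposited intensities, depleted minus tumour (x axis), against the log2 of the authors' ratio turned to depleted over tumour (y axis), with 1 point for each of 2744 named genes and a dashed line where both are equal. Large differences lie nearer 0 on the y axis than on the x axis.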

How the data were processed

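Total RNA from 1 lung sample per group was labelled by a 3′ in vitro transcription method and hybridised to Affymetrix arrays, per the labels' protocols. The deposited intensities, 1 linear value for each of 45101 probe sets, are not documented further: the sources used here do not state how they were scaled. The authors' deposited tables hold a ratio (fold) of tumour over depleted lung for listed probe sets, inverted here. A signed score beside it in the authors' deposited tables (the ratio, or minus its inverse below 1) served only to check its direction. The submitters' processing notes name Partek without a version.

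From the intensities, log2(depleted) minus log2(tumour) was computed with Python 3.11.15, numpy 2.4.6 and pandas 2.3.3, and figures were drawn with matplotlib 3.10.9. Gene names came from the authors' tables, which list 4310 probe sets (9.56%), and were updated through RefSeq (GRCm38.p6): 3661 matched by accession, 66 by symbol and 42 by older symbol, and 89 kept the file's name. Each gene is represented by the brightest of its listed probe sets, by the mean of 3 arrays, and was compared when its brighter array reached that array's 50th percentile. Array medians were 127 (depleted), 124 (tumour) and 128 (wild type), and 1 array per group limits the precision. On simulated data the script recovered all 100 genes raised and all 100 lowered. The planted differences were well past 2-fold, in bright genes and with little noise. Their recovery checks the counting steps only, and not dim probe sets or the lack of replicates. The members and lists were chosen with earlier results of these data known. Genes were named as the 12 highest and 12 lowest, up to 6 largest and 2 brightest others per list, and a short set of markers. Apln, Atp6v0d2, Ccl11, Ccl19, Ccl2, Ccl5, Cdh5, Clca1, Col3a1, Cyp2f2, Derl3, Dnaic1, Fabp5, Fn1, Hey1, Il18, Il1r2, Il1rl1, Il2ra, Jchain, Kdr, Klf2, Krtdap, Ldha, Ltf, Mcemp1, Mrc1, Ogn, Pgk1, S100a8, S100a9, Scgb3a2, Sprr1a, Tek, Thbs1, Top2a, Tppp3, Tyrobp and Wfdc21 were chosen after their values were seen. Some items are not reported here.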

Additional observations from a re-analysis of the deposited data

How the results depend on the processing

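Against 810 higher and 752 lower genes, a 3-fold threshold gave 390 higher and 425 lower, and all non-control probe sets with no level filter gave 5949 and 5710. A filter at the 75th percentile gave 557 higher and 492 lower. Scaling to the hybridisation controls shifted every difference by 0.15 and gave 679 higher and 837 lower. The authors' ratio gave 751 and 692, and genes past 2-fold by both measures, an alternative chosen after seeing the data, numbered 689 and 654. The median of the mast cell, basophil and eosinophil list (4 genes) turned from 1.40 to -1.02 without probe sets of shared sequence. These are the probe sets whose names end in _s_at, _x_at or _a_at. The ones that stood for Kit (3.01-fold higher) and Gata2 (6.42-fold higher) were left out. The new median thus rests on a changed set of probe sets, and does not show that any gene turned its sign. Of 403 list medians under alternatives, that of this list included, 387 stayed within 1.5-fold and 15 moved further. The cornified envelope median became -5.58 with the level filter at the 75th percentile. Of 2847 values of named genes under alternatives, 2697 stayed within 1.5-fold and 150 moved further. None of those past 2-fold turned its sign, but genes near 0 could: Mki67 turned from 0.32 to -0.03 by the authors' ratio. No paired analysis was possible because each group had 1 array. Dim probe sets limit the folds: 37 higher and 86 lower genes have only a lower bound.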
